A study of Mus musculus with 6 samples.

Results

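Inflammasome and pyroptosis genes were examined in primary mouse microglia (PM) that had been given the histone demethylase inhibitor GSK-J4 with or without lipopolysaccharide (LPS). The 10 genes were chosen by symbol from the 24411 genes of the count tables: the sensors Nlrp3, Aim2, Naip2, Naip5 and Naip6, the adaptor Pycard, the caspases Casp1, Casp4 and Casp8, and the pore-forming Gsdmd. All 10 had enough counts to be tested. Their expression was not used to choose them, although results on these libraries were already known when the list was drawn up.

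PM were prepared from pooled brains of ICR mice at postnatal day 3, as cells shaken off mixed glial cultures. The control group was 3 libraries from PM treated with GSK-J4 (10 µM) for 4 h, and the other group was 3 libraries from PM that received 10 ng/ml of LPS together with the same dose of GSK-J4, again for 4 h. GSK-J4, an inhibitor of the H3K27 demethylases of the JMJD3 family, was thus present in both groups, and the comparison asks what LPS, a ligand of the receptor TLR4, does in cells that carry the inhibitor. Untreated cells and cells given LPS alone were not analysed here, so no value below measures the effect of GSK-J4 itself. The study describes the replicates of each PM treatment as independent biological samples. The labels do not say which animals or cultures each library came from.

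Inflammasomes are cytosolic complexes in which a sensor that has met a microbial or danger signal recruits the adaptor ASC and activates caspase-1. Active caspase-1 matures the cytokines IL-1β and IL-18 and cuts gasdermin D. The gasdermin D fragment forms pores in the plasma membrane and leads to the lytic death called pyroptosis. Caspase-11, encoded by Casp4 in the mouse, binds cytosolic LPS directly and also cuts gasdermin D, and in macrophages and microglia TLR4 signalling is known as a priming step that raises the transcripts of some of these genes ahead of activation. Transcript levels do not show whether a complex was assembled or a pore was made.

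Between 11831774 and 13487463 fragments per library were sequenced, and 2597505 to 3472716 of them were counted on genes. The ribosomal gene Rn45s took 22.17 to 32.44% of these in the GSK-J4 libraries and 45.83 to 48.06% in the LPS + GSK-J4 libraries, which left 1374377 to 2443344 counts per library outside ribosomal features. Levels are therefore given as CPM, counts per 1000000 of the library total, after TMM scaling, which chooses the totals so that the bulk of genes do not differ. A count of 3 in a library, used as the detection floor, corresponded to 0.673 to 1.24 CPM. This floor covers counting error only, whereas the intervals and p values come from the fit and include the spread between libraries. Replicates 1 and 2 of each group were close, with a chi-square per degree of freedom over genes of 2.21 and 2.48, while pairs with replicate 3 gave 6.44 to 13.9. These values are from raw counts with Rn45s included and without TMM scaling. Rn45s took 32.44% in GSK-J4 replicate 3 and 22.17 and 22.34% in GSK-J4 replicates 1 and 2, and its part in the chi-square was not tested. Results that rest on replicate 3 are therefore given with and without it.

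The promoter sequences of Nlrp3 and Casp4, which passed the test below, and of a close pair of paralogs, Naip2 and Naip5, are shown first, to stand beside their levels. RefSeq windows of 250 bases before and 50 bases after each annotated start (GRCm38.p6) were used for 9 of the 10 members, 11 windows in all, and Gsdmd had no entry. Both strands were searched for an NF-kB motif (GGG, any pair of bases, TTTCC), an interferon-stimulated response element (GAAA, any pair of bases, GAAA) and a PU.1 motif (GAGGAA), and no match of one overlapped a match of another in these windows. The NF-kB letters were in 535 of 32851 windows of all genes (1.63%), the response element in 3.44% and the PU.1 letters in 28.3%. The letters were chosen with the promoter sequences in view, so these shares cannot test whether a member's match is unusual.

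The window of Casp4 (chr9:5308599-5308848, plus strand, upstream bases only) held the NF-kB letters at 2 places, and it was the only member with them. Capitals mark these matches, which begin 93 bases before the start on the plus strand and 14 bases before it on the minus strand. A neighbouring RefSeq start, with the window chr9:5308610-5308859, holds the same 2 matches at 104 and 25 bases before it.
Casp4: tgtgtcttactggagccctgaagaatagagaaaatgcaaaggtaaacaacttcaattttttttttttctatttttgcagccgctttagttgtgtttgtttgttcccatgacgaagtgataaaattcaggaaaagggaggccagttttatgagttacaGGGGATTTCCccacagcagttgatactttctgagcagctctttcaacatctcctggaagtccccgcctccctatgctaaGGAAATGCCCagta

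Nlrp3 has 2 annotated starts. The upstream window of the first (chr11:59541319-59541568, plus strand) held none of the 3 motifs, and that of the second (chr11:59542436-59542685, plus strand) held the PU.1 letters at 3 places, 220, 129 and 36 bases before the start, with the middle one on the minus strand. These matches are in capitals.
Nlrp3, first start: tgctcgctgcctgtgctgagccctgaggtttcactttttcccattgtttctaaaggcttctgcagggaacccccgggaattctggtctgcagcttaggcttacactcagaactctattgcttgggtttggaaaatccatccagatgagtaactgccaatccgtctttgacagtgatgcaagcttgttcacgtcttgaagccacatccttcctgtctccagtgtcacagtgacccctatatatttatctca
Nlrp3, second start: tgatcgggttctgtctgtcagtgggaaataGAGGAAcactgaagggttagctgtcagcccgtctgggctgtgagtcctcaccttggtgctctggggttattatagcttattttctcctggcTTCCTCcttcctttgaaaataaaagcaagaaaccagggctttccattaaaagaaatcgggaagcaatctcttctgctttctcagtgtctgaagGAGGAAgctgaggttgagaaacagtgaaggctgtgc

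The PU.1 letters were also in the windows of Aim2 (2 matches), Casp1 (1 match) and Pycard (1 match), and the response element was in no member's window. A match describes the letters of a window and is no evidence of a bound site, and a window without one holds only no exact copy of these letters.

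Naip2 and Naip5 are shown because they are neighbouring copies of one gene and share sequence. Their windows (Naip2, chr13:100202123-100202372, and Naip5, chr13:100247337-100247586, both minus strand) held 57 of 250 bases each in exact shared runs of at least 12 bases, with a longest run of 34 bases. Capitals mark the shared runs.
Naip2: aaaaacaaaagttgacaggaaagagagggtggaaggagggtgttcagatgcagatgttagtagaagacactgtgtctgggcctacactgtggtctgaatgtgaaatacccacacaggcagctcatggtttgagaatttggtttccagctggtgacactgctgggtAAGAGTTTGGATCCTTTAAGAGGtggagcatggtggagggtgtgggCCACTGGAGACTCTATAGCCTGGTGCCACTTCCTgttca
Naip5: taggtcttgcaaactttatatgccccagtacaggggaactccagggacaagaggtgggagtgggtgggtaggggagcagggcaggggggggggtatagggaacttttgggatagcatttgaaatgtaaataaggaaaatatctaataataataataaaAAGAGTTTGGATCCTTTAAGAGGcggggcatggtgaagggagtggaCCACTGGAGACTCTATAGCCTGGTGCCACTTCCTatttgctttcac

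At an adjusted p of at most 0.01 (edgeR quasi-likelihood test, adjusted over 10133 genes), 2 of the 10 members, Nlrp3 and Casp4, rose in the LPS + GSK-J4 libraries and 0 fell. Of all genes tested, 8.42% rose and 5.46% fell at this threshold. When a log2 change of 1.5 or more was also required, the same 2 members were called higher, against 2.95% of all genes, and 0 were called lower, against 0.809%. At an unadjusted p under 0.05, 2 members were higher and 3 were lower (Naip2, Naip5 and Gsdmd). DESeq2 passed 2 as higher and 0 as lower at an adjusted p of at most 0.01. The shares of all genes at that unadjusted p, or by DESeq2, were not calculated. These counts therefore cannot be set against genes in general. The median log2 fold change of the 10 members was -0.13, and that of all genes tested was 0.00 to 2 decimals (-0.00064). The 2 positive changes were those of Nlrp3 and Casp4, and the other 8 members had values below 0.

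**Figure D1:**
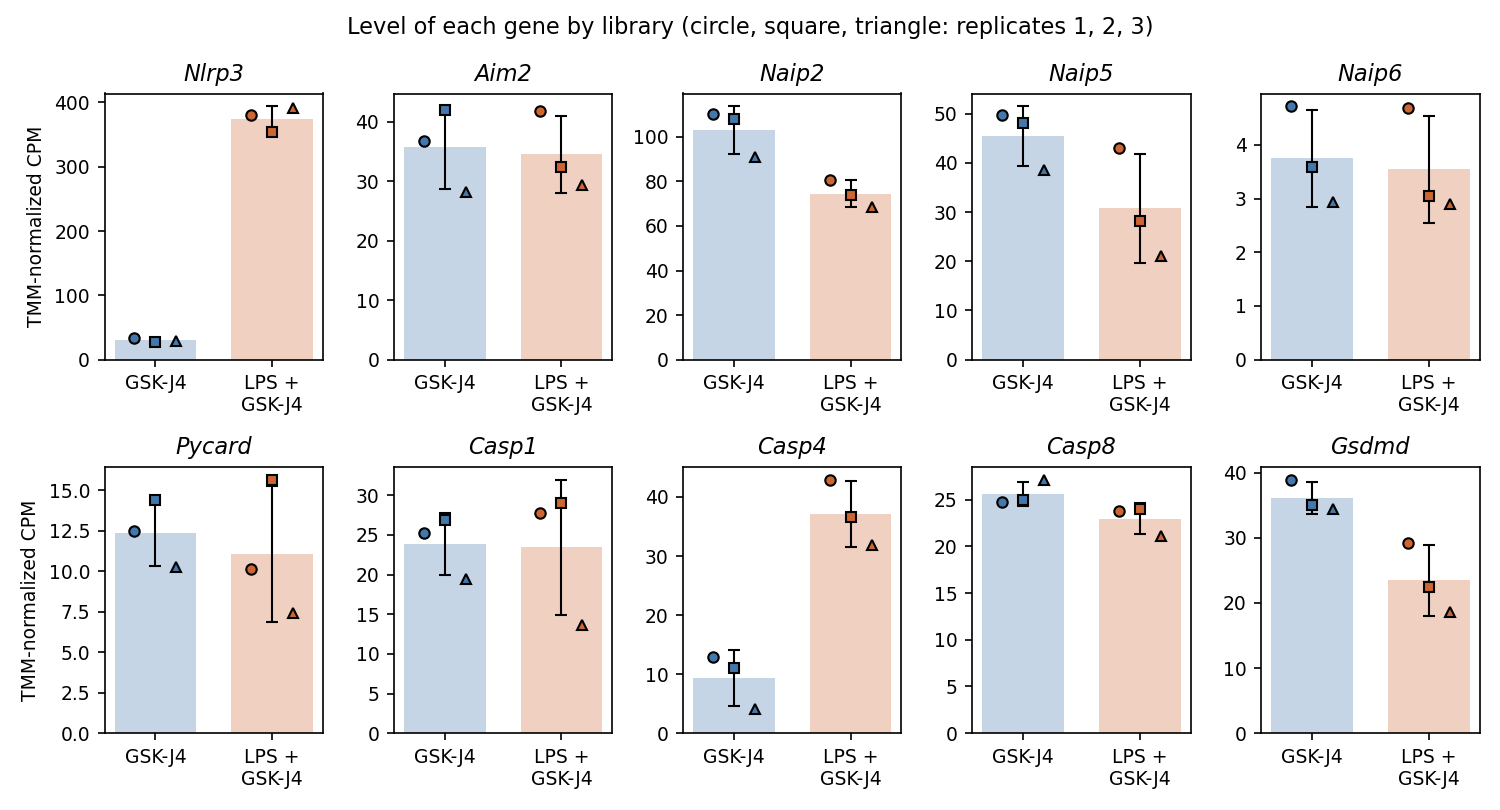
TMM-normalized CPM of the 10 genes in each library, 1 panel per gene with its own vertical axis from 0. Bars are means of 3 libraries, error bars are SD, and circle, square and triangle are replicates 1, 2 and 3. The 3 LPS + GSK-J4 libraries lie above the 3 GSK-J4 libraries for Nlrp3 and Casp4, and below them for Naip2, Casp8 and Gsdmd.

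Nlrp3 encodes the sensor that responds to potassium efflux, crystals and many other signs of damage, and its supply is a known limit on that response. Its gene lies at chr11:59541568-59566956 (mm10, plus strand). It stood at 34.2, 26.9 and 28.6 CPM in the GSK-J4 libraries and at 381, 353 and 391 CPM in the LPS + GSK-J4 libraries. These levels rest on 78 to 145 counts and 926 to 975 counts per library. The groups lay far apart and each was tight, with means of 29.9 ± 3.81 and 375 ± 19.3 CPM (SD, n = 3). The fold change was 12.5 (95% interval 10.2 to 15.3), or 3.64 on the log2 scale with an SE of 0.14, and the adjusted p from edgeR was 1.23e-11. By size of log2 fold change it ranked 34 from the top among 10133 genes. Without replicate 3 of both groups the log2 fold change was 3.59.

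Casp4 encodes caspase-11, the cytosolic receptor of LPS and the executioner of the non-canonical inflammasome, and lies at chr9:5308828-5336783 (plus strand), directly after Casp1. It was at 13.0, 11.0 and 4.03 CPM in the GSK-J4 libraries and at 42.9, 36.6 and 31.8 CPM in the LPS + GSK-J4 libraries. All 3 LPS + GSK-J4 libraries were above all 3 controls, and replicate 3 of GSK-J4, with 11 counts, was well below the other controls. The means were 9.34 ± 4.70 and 37.1 ± 5.58 CPM (SD, n = 3), a fold change of 3.78 (95% interval 2.54 to 5.64). On the log2 scale this was 1.92 with an SE of 0.27 (edgeR adjusted p = 7.81e-05, rank 152 of 10133). Without GSK-J4 replicate 3 it was 1.63, and it passed the adjusted p in that fit too. With library totals alone as the scale it was 1.34, which passed the adjusted p but was under the log2 threshold of 1.5.

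Groups of 3 that do not overlap were common in these data, since 19.8% of all genes tested were higher in every LPS + GSK-J4 library and 18.4% were lower in every one. Among the members, 2 were higher in this way (Nlrp3 and Casp4), 3 were lower (Naip2, Casp8 and Gsdmd) and 5 overlapped.

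The sensors other than Nlrp3 did not pass the threshold. Aim2, a receptor for cytosolic double-stranded DNA at chr1:173350879-173466040 (plus strand), was at 36.8, 42.0 and 28.2 CPM in the GSK-J4 libraries and at 41.8, 32.4 and 29.3 CPM in the LPS + GSK-J4 libraries. The groups overlapped across almost their whole range. Its log2 fold change was -0.06 (95% interval -0.46 to 0.34), with an edgeR adjusted p of 0.856. As a fold the 95% interval ran from 0.726 to 1.26. Part of Aim2 overlaps Cadm3 on the other strand, which the stranded counts keep apart.

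The Naip genes form a cluster of near copies on chromosome 13, and their products bind bacterial ligands and hand the signal to Nlrc4. NAIP2 recognises the inner rod protein of bacterial secretion systems, and NAIP5 and NAIP6 recognise flagellin. Naip2 (chr13:100144063-100202092, minus strand) was at 110, 108 and 90.9 CPM in the GSK-J4 libraries and at 80.8, 74.0 and 68.5 CPM in the LPS + GSK-J4 libraries. It was the most abundant of the members in total counts among the controls, and every LPS + GSK-J4 library was below every control. The log2 fold change was -0.47 (SE 0.13, 95% interval -0.76 to -0.19), and the edgeR adjusted p of 0.0166 missed the threshold of 0.01. Without replicate 3 of both groups it was -0.49 with an edgeR adjusted p of 0.00164, which is below the threshold. Naip2 did not pass in any fit without 1 library (edgeR adjusted p 0.0117 to 0.0824).

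Naip5 (chr13:100211739-100246323, minus strand) was at 49.8, 48.0 and 38.5 CPM in the GSK-J4 libraries and at 42.9, 28.2 and 21.1 CPM in the LPS + GSK-J4 libraries. One LPS + GSK-J4 library, replicate 1, lay within the control range and the other 2 were below it. The log2 fold change was -0.57 (SE 0.21, 95% interval -1.02 to -0.12; edgeR adjusted p = 0.0648). Without LPS + GSK-J4 replicate 1 it was -0.89 with an edgeR adjusted p of 0.00469. It also passed with all 6 libraries on library totals alone (edgeR adjusted p = 2.93e-04) and without the filter on low counts (0.00524). Naip5 did not pass without LPS + GSK-J4 replicate 3 (-0.37, edgeR adjusted p = 0.144) or without replicate 3 of both groups (-0.45, 0.0442).

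Naip6 (chr13:100281121-100317674, minus strand) was near the floor, at 4.72, 3.59 and 2.93 CPM in the GSK-J4 libraries and at 4.68, 3.05 and 2.89 CPM in the LPS + GSK-J4 libraries, from 7 to 20 counts. The groups overlapped, and the log2 fold change of -0.11 had a wide interval of -0.92 to 0.71 (edgeR adjusted p = 0.879), so that a change smaller than this was not detectable at this depth. The Naip values carry a limit of their own, because fragments that match several copies are left out of unique counting. Of all 101-base windows in its transcripts, 15.9% in Naip5, 6.08% in Naip6 and 4.25% in Naip2 also occurred in another gene of the family, so these genes may be undercounted. The annotation used here for positions also places the span of Gm18413 over part of that of Naip2 on the same strand, introns included. Whether this affects the Naip2 counts was not tested.

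Pycard encodes ASC, the adaptor that joins sensors to caspase-1 and forms the speck seen in activated cells, and lies at chr7:127989708-127993867 (minus strand). It was at 12.5, 14.4 and 10.3 CPM in the GSK-J4 libraries and at 10.1, 15.6 and 7.43 CPM in the LPS + GSK-J4 libraries, with the highest and the lowest value both in the LPS + GSK-J4 group. It had a log2 fold change of -0.17 (95% interval -0.75 to 0.41; edgeR adjusted p = 0.708). In the annotation used here a gene on the other strand, Gm45205, overlaps Pycard, and 10.3% of its 101-base windows occur in transcripts of that gene.

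Casp1, the protease that matures IL-1β and IL-18, lies at chr9:5298517-5307265 (plus strand). It was at 25.2, 26.9 and 19.4 CPM in the GSK-J4 libraries and at 27.7, 29.0 and 13.6 CPM in the LPS + GSK-J4 libraries. The groups overlapped, with the first 2 LPS + GSK-J4 libraries above all controls and the other below them. The log2 fold change was -0.04 (95% interval -0.55 to 0.48; edgeR adjusted p = 0.941). Without replicate 3 of both groups it was 0.13, with an edgeR adjusted p of 0.628. The neighbours Casp1 and Casp4, which lie in the same orientation next to each other, thus had intervals that did not meet, -0.55 to 0.48 and 1.34 to 2.49 on the log2 scale.

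Casp8, which starts apoptosis at death receptors and can also cut gasdermin D and IL-1β, lies at chr1:58795374-58847503 (plus strand). It was at 24.8, 24.9 and 27.1 CPM in the GSK-J4 libraries and at 23.8, 24.0 and 21.1 CPM in the LPS + GSK-J4 libraries. The groups did not overlap, but they were separated by a gap smaller than the spread within either. Its log2 fold change was -0.15 (95% interval -0.52 to 0.22; edgeR adjusted p = 0.587). In the annotation used here for positions, the span of Gm37760 overlaps that of Casp8 on the same strand, introns included. The annotation behind the counts is not known, and an effect of Gm37760 on the Casp8 counts was not tested.

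Gsdmd, the pore-forming substrate of caspase-1 and caspase-11, lies at chr15:75862327-75867408 (plus strand). It was at 38.9, 35.0 and 34.5 CPM in the GSK-J4 libraries and at 29.3, 22.5 and 18.6 CPM in the LPS + GSK-J4 libraries. Every LPS + GSK-J4 library was below every control, with means of 36.1 ± 2.43 and 23.5 ± 5.41 CPM (SD, n = 3). The log2 fold change was -0.62 (SE 0.19, 95% interval -1.02 to -0.23), and its edgeR adjusted p of 0.0238 missed the threshold. Without LPS + GSK-J4 replicate 1 it was -0.82 with an edgeR adjusted p of 0.00843, which passes. Gsdmd did not pass without LPS + GSK-J4 replicate 3 (-0.49, edgeR adjusted p = 0.0509) or without replicate 3 of both groups (-0.51, 0.0315). The protease gene Casp4 and the gene of its substrate thus had log2 fold changes of opposite sign, 1.92 and -0.62.

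**Figure D2:**
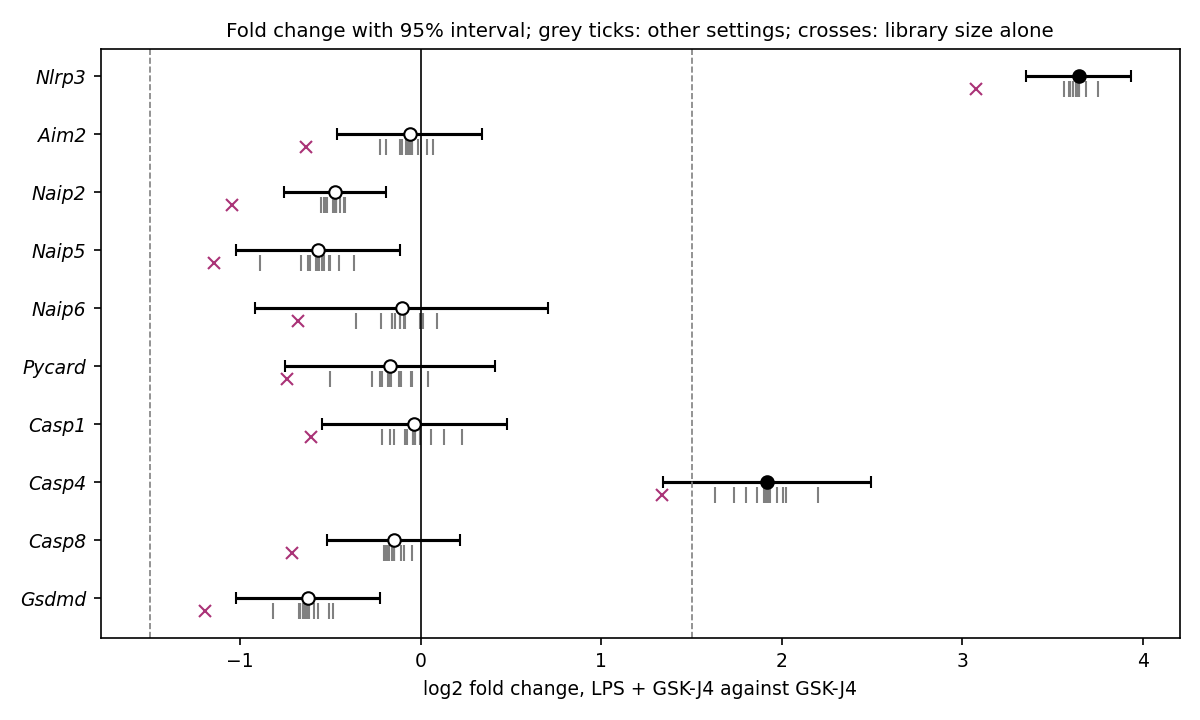
Log2 fold change of each gene in LPS + GSK-J4 against GSK-J4. Points with bars are the edgeR estimate and its 95% interval, filled where the adjusted p was at most 0.01; grey ticks are the other fits, crosses are the fit on library totals alone, and dashed lines mark 1.5 in each direction. Nlrp3 and Casp4 lie to the right of 0 in every fit, and the crosses lie to the left of the grey ticks for all 10 genes.

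The fit on library totals alone moved the median of all genes by -0.57 on the log2 scale, and the values of all 10 members moved down with it. On that scale Naip2, Naip5, Casp8 and Gsdmd passed as lower (4 members), with log2 fold changes from -1.19 to -0.71, whereas Nlrp3 remained higher at 3.07. The share of all genes that passed as lower on that scale was not calculated. Relative to the median gene, the members kept about the distances described above. Differences between members were not tested.

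Most members were lowest in the same library of their group. In the LPS + GSK-J4 group 9 of 10 members had their lowest level in replicate 3, where 36.8% of all genes tested did, and the exception was Nlrp3, which was highest there. In the GSK-J4 group 8 of 10 had their lowest level in replicate 3, against 38.1% of all genes, and the exceptions were Nlrp3 and Casp8. The spread of the members within a group was therefore shared, and they cannot be read as independent of each other.

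Levels of different genes were compared per kilobase of merged exons. Among the controls Naip2 was highest at 21.3 ± 2.19 CPM per kilobase (SD, n = 3), followed by Casp1 at 15.9 ± 2.63 and Gsdmd at 15.2 ± 1.02, which overlapped each other. Aim2 (10.2 ± 1.98), Casp8 (8.85 ± 0.457), Naip5 (8.73 ± 1.17) and Nlrp3 (7.37 ± 0.940) came next, and each overlapped with its neighbour in this order. Pycard (3.26 ± 0.540) and Casp4 (2.52 ± 1.27) overlapped as well, and Naip6 was lowest at 0.549 ± 0.132 CPM per kilobase.

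In the LPS + GSK-J4 libraries Nlrp3 took the first place with 92.4 ± 4.75 CPM per kilobase, clear of every other member in every library. Casp1 (15.7 ± 5.70) and Naip2 (15.4 ± 1.27) followed and overlapped. Casp4 reached the fourth place at 10.0 ± 1.51, where it could not be told apart from Gsdmd (9.87 ± 2.27), and Gsdmd overlapped with Aim2 (9.86 ± 1.85). Below them came Casp8 (7.94 ± 0.573), Naip5 (5.91 ± 2.14), Pycard (2.92 ± 1.10) and Naip6 (0.519 ± 0.145), with overlaps between Casp8 and Naip5 and between Naip5 and Pycard.

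The place of Nlrp3 moved from 7 to 1 by merged exons and by the longest transcript, and from 8 to 1 by coding length. Other places depended on the length used. By coding length Aim2 was highest in the controls (33.6 ± 6.54 CPM per kilobase) and Naip2 came at place 3, and in the LPS + GSK-J4 libraries Casp4 was at place 2 rather than 4 both by coding length and by the longest transcript. Pycard moved too, since its merged exons span 3800 bases and its coding sequence 579. Per kilobase of coding sequence Pycard stood at 21.4 ± 3.55 CPM in the controls and 19.1 ± 7.23 CPM in the LPS + GSK-J4 libraries, near Casp1 (19.8 ± 3.26 and 19.4 ± 7.07).

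**Figure D3:**
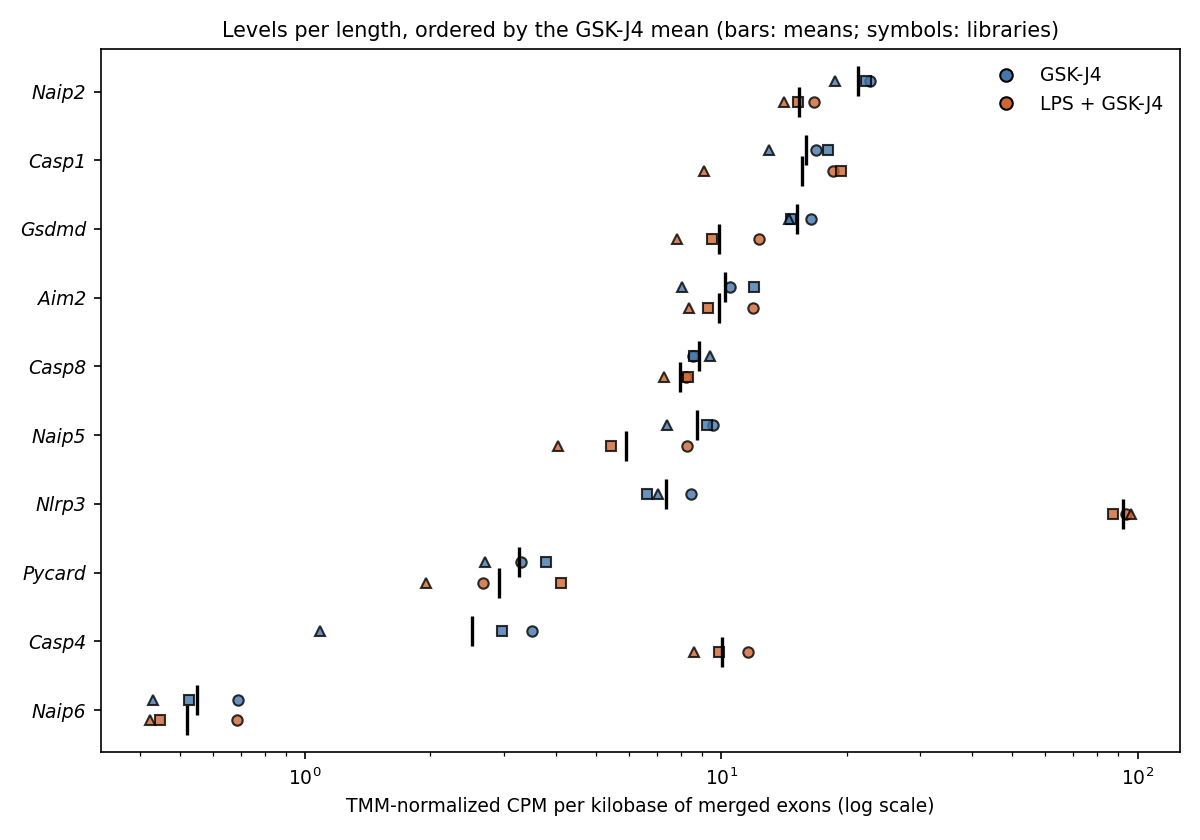
TMM-normalized CPM per kilobase of merged exons on a log scale, with genes ordered by their mean in the GSK-J4 libraries. Symbols are libraries (circle, square and triangle for replicates 1, 2 and 3) and bars are group means. Nlrp3 moves from 7.37 to 92.4 and Casp4 from 2.52 to 10.0, and the other 8 genes have LPS + GSK-J4 means below their GSK-J4 means.

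Other genes of the pathway were read from a list of 55, drawn up with earlier results on these libraries in view, of which 32 had enough counts to be tested. Of the 32, 7 rose and 4 fell at an adjusted p of at most 0.01, where 8.42% and 5.46% of all genes did, and 21 did not pass. Their median log2 fold change was -0.09, with 13 values above 0 and 19 below. DESeq2 passed 6 as higher and 4 as lower, and its shares of all genes were not calculated.

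Of the other sensors, 5 of 10 were tested and 1 rose. Nod2, which binds muramyl dipeptide from bacterial walls and signals through RIPK2 rather than through an inflammasome, went from 2.83, 2.69 and 4.03 CPM in the GSK-J4 libraries to 7.81, 14.1 and 11.2 CPM in the LPS + GSK-J4 libraries (log2 fold change 1.82, SE 0.33, edgeR adjusted p = 6.90e-04). All 3 LPS + GSK-J4 libraries were above the controls. Nlrc4, the partner through which the NAIP proteins act, was at 8.47 ± 0.678 and 10.6 ± 4.23 CPM (SD, n = 3), with a log2 fold change of 0.30 (95% interval -0.33 to 0.94; edgeR adjusted p = 0.517).

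Of the regulators of inflammasome assembly, 9 of 15 were tested, 2 rose and 1 fell. Those that rose were guanylate-binding proteins, GTPases that attack intracellular bacteria and expose their LPS to caspase-11. Gbp5 was at 1.89, 0.449 and 0.733 CPM in the GSK-J4 libraries, from 8, 2 and 2 counts, and at 183, 190 and 167 CPM in the LPS + GSK-J4 libraries. It was thus abundant in all 3 LPS + GSK-J4 libraries, while GSK-J4 replicates 2 and 3 were below the floor of 3 counts. The fitted log2 fold change was 7.37 (edgeR adjusted p = 4.52e-12), and its size rests on these few counts, since it was 8.22 without GSK-J4 replicate 1 and 6.93 without GSK-J4 replicate 2. Gbp2 was at 7.31, 4.26 and 2.20 CPM and at 42.9, 44.3 and 57.4 CPM (fold change 9.88, 95% interval 6.60 to 14.8, edgeR adjusted p = 2.49e-07).

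The regulator that fell was P2rx7, the ATP-gated channel whose opening lets potassium out of the cell and triggers NLRP3. It was at 163, 174 and 166 CPM in the GSK-J4 libraries and at 68.3, 61.1 and 54.1 CPM in the LPS + GSK-J4 libraries. The groups were well separated, and the log2 fold change was -1.46 (SE 0.13, 95% interval -1.73 to -1.18, edgeR adjusted p = 5.61e-07), just short of the size threshold of 1.5. Nek7, the kinase that NLRP3 needs to assemble, was at 49.7 ± 7.19 and 47.6 ± 14.5 CPM (log2 fold change -0.06, 95% interval -0.49 to 0.36; edgeR adjusted p = 0.864).

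In the list of the caspase-8 complex and necroptosis, 6 of 7 were tested, 2 rose and 1 fell. Cflar, which encodes the caspase-8 inhibitor c-FLIP, was at 111, 99.7 and 84.0 CPM in the GSK-J4 libraries and at 375, 363 and 308 CPM in the LPS + GSK-J4 libraries, a fold change of 3.54 (95% interval 2.92 to 4.31, edgeR adjusted p = 4.59e-08). Casp8 itself, beside it, had its interval around 0. Zbp1, a sensor of Z-form nucleic acid, rose from 5.39 ± 2.14 to 12.5 ± 0.614 CPM (log2 fold change 1.17, edgeR adjusted p = 0.00827). Ripk1, a kinase at the branch between survival and death, fell from 64.7 ± 6.48 to 43.9 ± 2.63 CPM (log2 fold change -0.56, edgeR adjusted p = 0.00920). Both calls were marginal. Ripk1 missed the threshold in all 6 fits without 1 library (edgeR adjusted p 0.0102 to 0.0663), and Zbp1 missed it in 5 of 6 (up to 0.0443), the exception being the fit without GSK-J4 replicate 1.

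Of the other caspases 5 of 6 were tested, 0 rose and 1 fell. All 5 had log2 fold changes below 0, and at an unadjusted p under 0.05 none was higher and 2 were lower. DESeq2 passed 0 as higher and 1 as lower. The shares of all genes at that unadjusted p, or by DESeq2, were not calculated. Casp9, the initiator of mitochondrial apoptosis, was at 29.3, 29.9 and 35.2 CPM in the GSK-J4 libraries and at 17.6, 17.2 and 17.3 CPM in the LPS + GSK-J4 libraries (log2 fold change -0.85, SE 0.18, edgeR adjusted p = 0.00264). Without GSK-J4 replicate 3 its edgeR adjusted p was 0.0111, and without LPS + GSK-J4 replicate 2 it was 0.0160.

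Of the other gasdermins and genes of membrane rupture or repair, 4 of 12 were tested, 0 rose and 1 fell, the same numbers as by DESeq2. At an unadjusted p under 0.05 none was higher and 2 were lower, and here too no share of all genes was calculated. Ninj1, whose product ruptures the membrane after pores have formed, was at 180, 163 and 204 CPM in the GSK-J4 libraries and at 92.1, 96.5 and 121 CPM in the LPS + GSK-J4 libraries. The groups were apart, with a log2 fold change of -0.82 (SE 0.14, 95% interval -1.11 to -0.53, edgeR adjusted p = 4.05e-04). Of the 8 gasdermins besides Gsdmd none had enough counts to be tested, so Gsdmd was the only gasdermin whose level could be compared.

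In the list of interleukin-1 family cytokines and a binding protein, 3 of 5 were tested and 2 rose. Il1b was at 15.3, 10.8 and 6.60 CPM in the GSK-J4 libraries and at 194, 174 and 177 CPM in the LPS + GSK-J4 libraries (fold change 16.1, log2 4.00 with a 95% interval of 3.58 to 4.43, edgeR adjusted p = 4.16e-10). Il1a was at 59.9, 50.3 and 35.9 CPM and at 531, 566 and 479 CPM (fold change 10.7, 95% interval 8.41 to 13.5, edgeR adjusted p = 2.21e-10). Il18, like Il1b the gene of a caspase-1 substrate, was near the floor in both groups, at 3.01 ± 0.664 and 2.72 ± 1.76 CPM (SD, n = 3, edgeR adjusted p = 0.867). Nlrp3, Il1a and Il1b thus lay between 10.7 and 16.1 times their control level, and Casp4 at 3.78 times. Pycard, Casp1, Gsdmd and Il18 had fitted levels below their controls and did not pass, and the 95% intervals of Pycard, Casp1 and Il18 included no change.

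**Figure D4:**
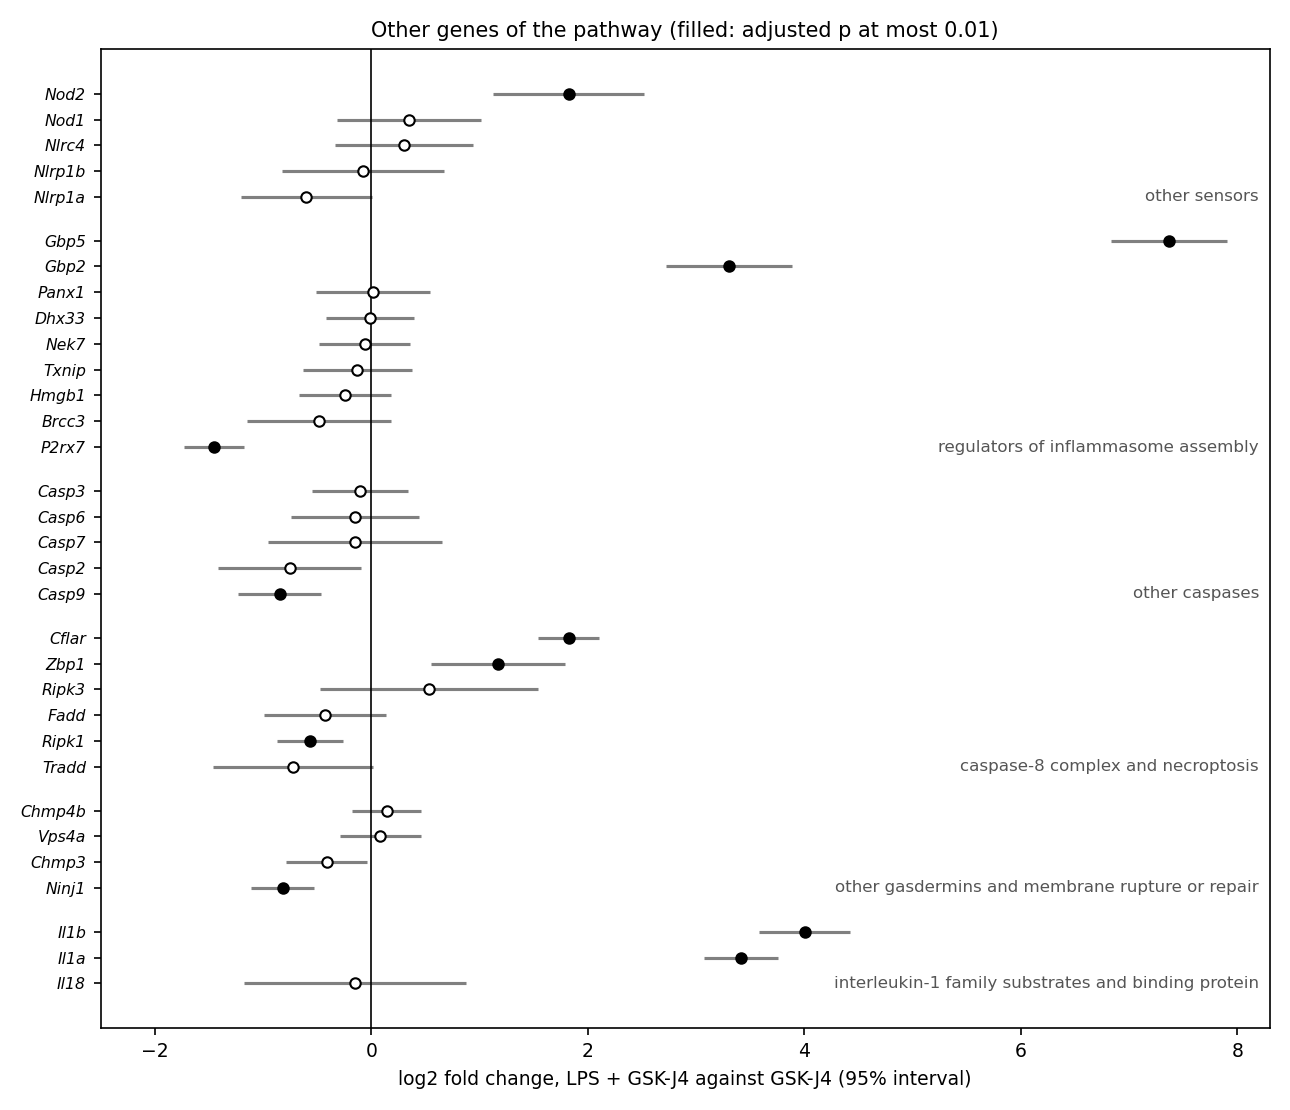
Fold change (log2, LPS + GSK-J4 over GSK-J4) for the 32 other pathway genes tested, grouped by list. Bars are 95% intervals and filled points passed an adjusted p of 0.01. Gbp5 lies farthest to the right at 7.37 and P2rx7 farthest to the left at -1.46.

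The labelled cell type was checked against marker genes. The microglial markers Csf1r, Cx3cr1, Itgam and Trem2 were abundant in all 6 libraries, while Tmem119, P2ry12 and Aif1 were low, at means of 5.01, 13.2 and 6.37 CPM in the controls. The summed level of the 7 microglial markers was 1618 to 1676 CPM in the GSK-J4 libraries and 1184 to 1279 CPM in the LPS + GSK-J4 libraries, and 2 of 7, Csf1r and Cx3cr1, fell (log2 fold changes -0.46 and -0.48, edgeR adjusted p 0.00450 and 0.00354). The median log2 fold change of these 7 markers was -0.46, beside -0.47 for Naip2, -0.57 for Naip5 and -0.62 for Gsdmd.

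Markers of other cells were lower in level, and several of their sums moved the other way, though not every gene of those lists did. Summed astrocyte markers (8 genes) were at 53.9 to 59.4 CPM and then 131 to 159 CPM, and 3 rose (Gfap, Aqp4 and Gja1). Log2 fold changes of the 7 astrocyte markers tested ran from -0.16 (Aldh1l1) to 1.70 (Gfap). Summed oligodendrocyte lineage markers (7 genes) were at 156 to 181 CPM and then 274 to 359 CPM, and 4 rose (Mbp, Mag, Olig1 and Cspg4). Neuron markers (6 genes) were at 15.5 to 19.4 CPM and then 33.2 to 41.0 CPM, and the only 2 tested rose (Map2 and Tubb3). The other neuron markers had group means of 1.07 CPM or less, with Syt1 and Rbfox3 lower and Snap25 and Nefl higher in LPS + GSK-J4. Endothelial markers (4 genes, with Cldn5 at 0 counts in all libraries) were at 13.9 to 21.2 CPM and then 25.0 to 62.4 CPM, and 1 of 2 tested rose (Cdh5). Flt1 did not pass (log2 fold change 0.61), and Pecam1, not tested, had means of 1.01 and then 0.790 CPM. Fibroblast markers (5 genes, 71.8 to 262 CPM and then 132 to 393 CPM) and granulocyte markers (4 genes, 2.20 to 4.71 CPM and then 2.29 to 5.07 CPM, with S100a9 at 0) had sums that overlapped between the groups, and none of these genes passed. In bulk libraries fewer cells of a type and less RNA per cell cannot be told apart, and the part of these shifts, or of the ribosomal share, in the lower values of Naip2, Naip5 and Gsdmd was not tested. The rises of Nlrp3 and Casp4 were opposite in direction to the summed microglial markers. They had the same direction as the summed astrocyte, oligodendrocyte lineage, neuron and endothelial markers. The part of these shifts in the 2 rises was not tested either.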

How the data were processed

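RNA was measured in 6 libraries of PM by strand-specific sequencing of ribosome-depleted RNA. The submitters' processing notes name CASAVA 1.8.2, Trimmomatic 0.33, STAR 2.5.1, DESeq2 and mm10. The authors deposited each library's raw counts of uniquely mapped fragments on each gene, which carry no scaling. The gene annotation behind them is not given in the sources used here. The column for the reverse strand (column 4) was used, since the kit keeps the strand opposite to the transcript. The tallies of unassigned fragments at the top of each table stayed out of library sizes and tests. Groups and replicate numbers came from the sample titles.

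Counts were tested in R 4.3.3 with edgeR 4.0.16 (TMM, filterByExpr at its defaults of 10 counts and a total of 15, robust quasi-likelihood test) over 10133 genes, without covariates, with Benjamini-Hochberg adjustment over all of them. Passed means an adjusted p of at most 0.01, and called also requires a log2 change of 1.5 or more in either direction, the thresholds of the study's methods. The common biological coefficient of variation was 0.133. An exact permutation test of 3 libraries against 3 cannot pass 0.05, so none was used. On simulated data of this comparison with 10133 genes edgeR recovered 38 of 67 genes changed by 1 on the log2 scale. It recovered 66 of 67 changed by 2 and 66 of 66 changed by 3, with 0 unchanged genes passing. The changed genes were drawn from the better counted ones. The simulated libraries held no deviating replicate 3 and no spread shared between genes. These numbers therefore do not measure how the test performs on genes with few counts or on these replicates. Errors are SD over 3 libraries.

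The members and lists were chosen with earlier results of these data known, and the motif letters with the promoter sequences in view. Named are all members, every other pathway gene that passed, and the markers of microglia and of the lists that moved; Nlrc4, Nek7 and Il18 were added after their values were seen. A pair of marker genes is not reported here and was left out of the marker sums. Alternatives were DESeq2 1.42.0 and its size factors, library totals alone, no filter, at least 10 counts in every library, unstranded counts, no ribosomal features, a replicate block, looser thresholds, and fits without each library or without replicate 3. Positions and lengths are from GENCODE (mm10), promoters from RefSeq. Tables were made in Python 3.11.15.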

Additional observations from a re-analysis of the deposited data

Results flagged for a closer look

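Fragments on the strand opposite to the gene entered only the alternative fit on unstranded counts. For Nlrp3 and Casp4 they were more numerous in every LPS + GSK-J4 library than in any control, and these genes were flagged for that reason. The share of all genes that separated in this way was not calculated. Counts on the gene's own strand rose for both as well. For Nlrp3 there were 12 antisense fragments in all (3, 4 and 5 per library) against 1 in the GSK-J4 libraries. These were 0.420% and 0.291% of the gene's fragments on both strands. For Casp4 there were 4 (1, 2 and 1 per library) against 0 in the controls, or 1.39% of its fragments. Antisense totals of the other members differed in direction. Naip5 went from 1 to 6 antisense fragments (0.188% to 2.49%), Pycard from 4 to 6 (2.68% to 6.59%) and Aim2 from 1 to 3 (0.238% to 1.13%). Totals were the same in both groups for Naip2 (8), Casp8 (2) and Naip6 (0). They were lower in LPS + GSK-J4 for Casp1 (4 to 3) and Gsdmd (2 to 0). In all genes together the antisense share was 0.966 to 1.38% per library.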

How the results depend on the processing

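Nlrp3 and Casp4 passed an adjusted p of 0.01 in all 16 fits, with log2 fold changes of 3.07 to 3.75 and 1.34 to 2.20. By library totals alone 1 member instead of 2 was called higher, because Casp4 fell under the log2 threshold. The number of members that passed as lower, 0 as reported, was 4 by library totals alone, 3 without the filter on low counts, 3 with the replicate block, 1 without replicate 3 of both groups, 2 at an adjusted p of 0.05, and 0 to 2 when 1 library was left out. The 2 were Naip5 and Gsdmd without LPS + GSK-J4 replicate 1. The shares of all genes that passed as lower in these settings were not calculated. The 5.46% given above belongs to the reported fit only. Counts from the other settings, for members and for other pathway genes, therefore cannot be set against genes in general. With the replicate block (edgeR) Naip2, Naip5 and Gsdmd had adjusted p of 5.81e-04, 0.00219 and 0.00239. The replicate numbers were not taken as pairs, since no label says that they pair the libraries. Same-numbered libraries deviated together with correlations of -0.01 to 0.29, over 0.1 in 2 of 3 pairs. Libraries with different numbers had correlations of -0.29 to 0.24. The highest value of all was that of the libraries numbered 3, and these few values cannot decide whether the numbers are pairs. Of the other pathway genes 11 passed as lower by library totals alone instead of 4, and 2 to 3 when 1 library was left out, with 2 without GSK-J4 replicate 3 or without LPS + GSK-J4 replicate 2. Log2 fold changes near 0 changed sign when 1 library was left out, with ranges of -0.22 to 0.069 for Aim2, -0.36 to 0.092 for Naip6, -0.51 to 0.038 for Pycard and -0.21 to 0.23 for Casp1, and that of Casp1 was 0.13 without replicate 3 of both groups. Of the 10 places in the order of levels per length, 6 held by the longest transcript and 2 by coding length (chosen after seeing the data) in the GSK-J4 group, and 2 by coding length in the LPS + GSK-J4 group. The cause of these shifts was not tested. Naip6 could not be fitted under the filter of 10 counts in every library or without ribosomal features, where it did not pass the filter. With 3 libraries a group and 7 to 20 counts, the level of Naip6 is limited by depth.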
